A study of Bos taurus with 8 samples.

Results

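De novo fatty acid synthesis and desaturation were followed through 10 genes in cultured bovine mammary epithelial cells: ACLY, ACSS2, ACACA, FASN, ELOVL6, SCD, FADS1, FADS2, SREBF1 and THRSP. The genes were chosen by name. All 36 array probes that carry one of these symbols in the scanner files were taken, of 43653 probes in all, and 30 of them passed the filter on dim signal. Each of the 10 genes kept at least 1 probe, beside 12617 genes tested in all. The study aimed short hairpin RNAs (shRNAs) at EEF1D, whose product is a nucleotide exchange subunit of the elongation machinery of translation.

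The groups were 3 arrays of cells given the EEF1D-1357 shRNA, 3 arrays of cells given the EEF1D-1893 shRNA, and 2 arrays of control cells labelled as having no shRNA. All cells were primary cultures from the mammary tissue of a lactating Holstein cow, at the fifth passage. Both shRNA groups carry the genotype label EEF1D knockdown. The labels name no array with a hairpin against another target, so the presence of a hairpin and the loss of EEF1D cannot be told apart. They also leave unsaid whether the arrays of a group stand for separate cultures, so the p-values reflect the spread between these samples only, which may be technical. Because RNA was taken from whole cultures, fewer cells of a type and less RNA per cell cannot be told apart.

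Milk fat in ruminants is built partly from fatty acids made in the mammary cell itself, from acetate taken up from blood. ACSS2 turns acetate and ACLY turns citrate into cytosolic acetyl-CoA, ACACA makes malonyl-CoA from it, and FASN builds the saturated chain from malonyl-CoA. ELOVL6 lengthens long saturated chains, SCD places the first double bond in them, and FADS1 and FADS2 add further double bonds to polyunsaturated chains. SREBF1 encodes the transcription factor SREBP-1, which drives many of these genes, and THRSP encodes a small protein associated with lipogenesis in the mammary gland.

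The probes are 60 bases long and their sequences are shown because the results turn on whether different probes of a gene give the same picture. Positions are those of the scanner files (build Btau_3.1), and no gene model of that build was used here, so exons and untranslated regions are not named. The 3 probes of ACACA lie on the minus strand of chromosome 19 and do not overlap. A_73_P038926 (chr19:12873519-12875405) spans 1887 bases of the genome, A_73_P486308 lies at chr19:13034288-13034347 and A_73_P109341 at chr19:13084934-13084993. They are printed 5′ to 3′ with no part in capitals.
ACACA A_73_P109341: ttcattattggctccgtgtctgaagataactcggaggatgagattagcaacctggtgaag
ACACA A_73_P486308: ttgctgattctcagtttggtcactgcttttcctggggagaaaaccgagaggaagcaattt
ACACA A_73_P038926: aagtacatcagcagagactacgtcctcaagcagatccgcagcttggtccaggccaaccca

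FASN had 5 probes on the plus strand of chromosome 19. A_73_P113101 (chr19:52184127-52184304) lies 5703 bases upstream of the last probe, followed by A_73_101920 (chr19:52188781-52188840) and A_73_104455 (chr19:52189550-52189609). The last pair, A_73_P245306 (chr19:52189933-52189992) and A_73_P174332 (chr19:52189948-52190007), share 45 identical bases and so are not independent of each other. For this pair the first 30 bases are printed, with the shared bases in capitals.
FASN A_73_P113101: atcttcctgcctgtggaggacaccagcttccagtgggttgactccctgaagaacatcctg
FASN A_73_101920: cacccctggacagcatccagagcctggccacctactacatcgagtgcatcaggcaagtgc
FASN A_73_104455: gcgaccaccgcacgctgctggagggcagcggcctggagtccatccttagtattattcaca
FASN A_73_P245306: tctgtactctgtttcATTTTTCACGAACCT
FASN A_73_P174332: ATTTTTCACGAACCTGGTAAAGATGTTGTC

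ELOVL6 and SCD hold pairs of probes that are nearly the same sequence. The ELOVL6 probes A_73_119372 (chr6:16762049-16762108) and A_73_P404726 (chr6:16762059-16762118) overlap by 50 bases and differ there at C33T and C41T, counted from the 5′ end of A_73_119372. The SCD probes A_73_P252739 and A_73_P285671 overlap by 54 bases and differ there at T16C, counted from the 5′ end of A_73_P252739. Stretches of 30 bases around these differences are printed with the differing base in capitals, next to the start of the ELOVL6 probe A_73_P087236 (chr6:16760233-16760292), which behaved unlike the others of its gene. The SCD probes have no position in the files.
ELOVL6 A_73_119372: acaagggctttCtcagcatCtcgtctatgt
ELOVL6 A_73_P404726: acaagggctttTtcagcatTtcgtctatgt
ELOVL6 A_73_P087236: tcggaactgaggaggaagccgtagctcagg
SCD A_73_P252739: aagttcaagaaagctTgatgtcaaagttat
SCD A_73_P285671: aagttcaagaaagctCgatgtcaaagttat

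None of the 36 probes shares 25 or more bases with a probe of another gene on the array. Values below are scaled log2 intensities, that is the log2 of the processed spot intensity minus the 75th percentile of its array, so that 0 is the level of that percentile and each unit is a doubling. The 75th percentile lay between 1276 and 2102 intensity units, lowest in control replicate 1, and between 60.7% and 71.6% of probes were well above background. Levels of different probes are not comparable. The arrays sat on 2 slides. Control replicate 2 shared slide 1 with every EEF1D-1357 array, and control replicate 1 shared slide 2 with every EEF1D-1893 array, so each shRNA has 1 control on its own slide.

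The target and the cell type were checked first. The EEF1D probe with the highest signal (A_73_115715) gave 5.97, 5.85 and 5.09 with EEF1D-1357 and 5.99, 5.74 and 5.76 with EEF1D-1893, against 7.11 and 6.14 in the controls. All 6 shRNA arrays lay below both controls, with a log2 fold change of -0.89 (SE 0.32) that did not pass (limma adjusted p = 0.242). It was -0.41 against control replicate 2 alone and -1.38 against control replicate 1 alone. Of the 3 other EEF1D probes, A_73_P279701 also had every shRNA array below both controls (-0.88, SE 0.31). A_73_P159712 (-1.16, SE 0.48) overlapped the controls with EEF1D-1893, and A_73_P265551 (-0.33, SE 0.33) overlapped them with both hairpins and was 0.14 on slide 1. Of the luminal epithelial markers, 9 of 10 (all but ELF5) were measured and all 9 were well above background on every array. The 5 measured leukocyte markers were as well, so this count does not by itself set luminal cells apart. Of the milk proteins, CSN1S1, CSN1S2 and LALBA stayed below the filter, and CSN2, CSN3 and PAEP were measured, with a summed level of 1.90 to 2.69 in the shRNA arrays, against 3.21 and 2.03 in the controls, in units of the array's 75th percentile.

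Across the 10 genes, the carboxylase and the synthase were the lowest relative to control. FASN reached 57.5% and ACACA 55.6% of the control level over the 6 shRNA arrays, and SREBF1 71.5%. ACSS2 stood at 93.2% of control in EEF1D-1357 cells and at 58.7% in EEF1D-1893 cells. SCD (74.0%) and ACLY (82.3%) were also below control on average with overlapping groups, the elongase ELOVL6 stood at 101% by its brightest probe, and the desaturases FADS1 and FADS2 and THRSP had intervals that span 0 widely. None of the 10 genes passed the test at a limma adjusted p under 0.05 for both shRNAs together, nor did any of the 12617 genes (0% called). At an unadjusted p under 0.05, 4 of the 10 genes (FASN, ACACA, SREBF1 and ACSS2) were lower and 0 higher, against 9.6% lower and 7.34% higher over all genes. Log2 fold changes were below 0 for 8 of the 10, where 57.2% of all genes were, and their median was -0.44, beside -0.068 over all genes.

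**Figure D1:**
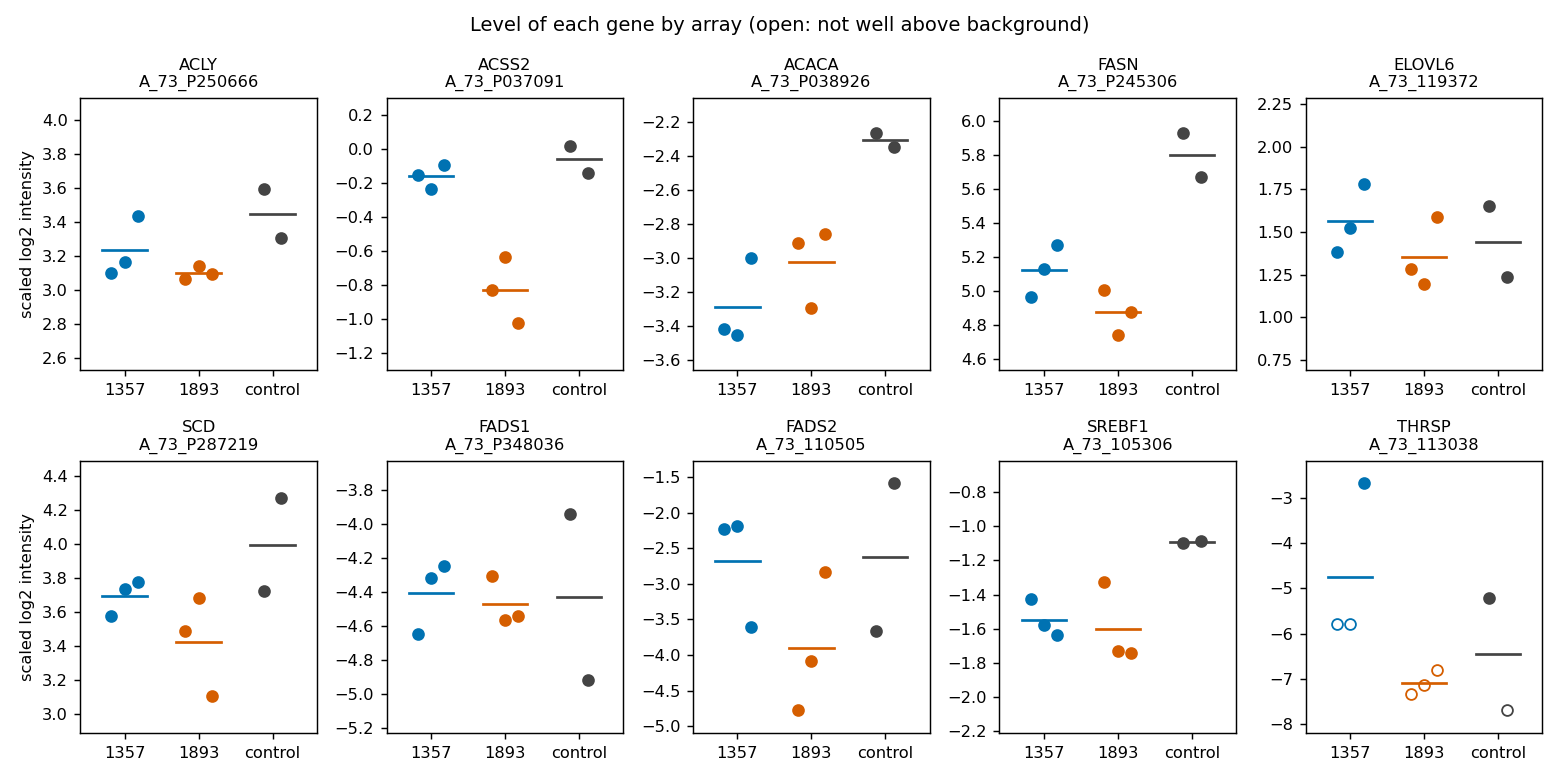
Scaled log2 intensity of the brightest probe of each of the 10 genes, by array (points) and group mean (lines), for EEF1D-1357, EEF1D-1893 and control, with a separate vertical range for each gene. For ACACA, FASN and SREBF1 all 6 shRNA arrays lie below both controls, for ACSS2 the EEF1D-1893 arrays alone do by a clear margin, and THRSP was well above background on 2 of 8 arrays.

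ACLY and ACSS2 supply the acetyl-CoA, and neither was low with both hairpins in every array. ACLY, ATP citrate lyase, gave 3.10, 3.16 and 3.44 with EEF1D-1357 and 3.06, 3.14 and 3.09 with EEF1D-1893, against 3.59 and 3.30 in the controls (A_73_P250666). One EEF1D-1357 array lay above the lower control, so the groups overlap. The log2 fold change for both shRNAs was -0.28 (SE 0.15, limma adjusted p = 0.363), and it was -0.14 without control replicate 1. All 4 ACLY probes were below 0, between -0.20 and -0.92, and for A_73_111688 and A_73_P435816 every shRNA array lay below both controls. A_73_P435816, which lies 35722 bases upstream of the last probe, had the widest gap: -3.71, -3.62 and -3.33 with EEF1D-1357 and -3.34, -3.43 and -3.68 with EEF1D-1893, against -2.24 and -2.96 in the controls. Its log2 fold change of -0.92 (SE 0.22) did not pass over all probes (limma adjusted p = 0.141), and its controls differed by 0.72.

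ACSS2, the cytosolic acetyl-CoA synthetase, was lower with EEF1D-1893 than with EEF1D-1357, a difference that did not pass. Its probe A_73_P037091 (chr13:64815374-64815433) gave -0.15, -0.23 and -0.10 with EEF1D-1357 and -0.83, -0.63 and -1.02 with EEF1D-1893, against 0.02 and -0.14 in the controls. After scaling, the EEF1D-1893 arrays lay below every other array, and the EEF1D-1357 arrays overlapped the controls. Before scaling the values overlapped on slide 2, at 906.6, 1310 and 974.4 with EEF1D-1893, against 1294 in control replicate 1. On slide 1 they were 1867, 1787 and 1882 with EEF1D-1357, against 1687 in control replicate 2. Against control, the log2 fold change was -0.77 (SE 0.16) for EEF1D-1893 (limma adjusted p = 0.211) and -0.10 (SE 0.16) for EEF1D-1357 (limma adjusted p = 0.752), neither passing.

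The difference between the hairpins was tested directly. ACSS2 was 0.67 higher with EEF1D-1357 than with EEF1D-1893 on the log2 scale (SE 0.14, 95% confidence interval 0.33 to 1.00), with an unadjusted p of 0.00206 in limma and an adjusted p of 0.747. The 2 shRNA groups did not overlap for 2 of the 10 genes, ACSS2 and THRSP, against 21.6% of all genes, and for THRSP only 1 of the 6 shRNA arrays was well above background. Each shRNA shares its slide with 1 control, and within slides ACSS2 was -0.023 with EEF1D-1357 on slide 1 and -0.85 with EEF1D-1893 on slide 2. With slide as a block, EEF1D-1893 against control passed (-0.85, limma adjusted p = 0.0358), where 8.16% of all genes were called lower. The difference between the hairpins did not (0.83, limma adjusted p = 0.127), where 0.0476% of all genes were called. In that fit each hairpin is set against the 1 control of its slide, so the spread between controls does not enter. The other ACSS2 probe, A_73_P326996, was well above background on 1 array only and was not fitted.

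ACACA, acetyl-CoA carboxylase, makes the malonyl-CoA that commits carbon to chain synthesis. Its probe A_73_P038926 gave -3.41, -3.45 and -3.00 with EEF1D-1357 and -2.91, -3.29 and -2.86 with EEF1D-1893, against -2.26 and -2.35 in the controls. All 6 shRNA arrays were below both controls, which differed from each other by 0.086. Before scaling, intensities on slide 1 were 195, 192 and 251.6 with EEF1D-1357, against 364.5 in control replicate 2. On slide 2 the values overlapped before scaling, at 214.7, 207.2 and 272.7 with EEF1D-1893, against 265.7 in control replicate 1. The log2 fold change was -0.85 (SE 0.18, 95% confidence interval -1.28 to -0.41), with an unadjusted p of 0.00233 and a limma adjusted p of 0.153. By hairpin it was -0.98 (SE 0.21) with EEF1D-1357 and -0.71 (SE 0.21) with EEF1D-1893, and these 2 values share their controls.

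The other 2 ACACA probes also had the shRNA arrays below the controls. A_73_P109341, 211415 bases upstream of the last probe, gave -5.47, -5.24 and -4.58 with EEF1D-1357 and -4.74, -5.11 and -4.48 with EEF1D-1893, against -3.74 and -4.36 in the controls. A_73_P486308 gave -6.20, -5.62 and -5.46 with EEF1D-1357 and -5.04, -5.89 and -5.19 with EEF1D-1893, against -4.23 and -4.73 in the controls. In both, no shRNA array reached either control. These probes are dim: A_73_P109341 was well above background on 7 arrays and A_73_P486308 on 4, none of them with EEF1D-1357. For A_73_P486308, control was at least 1.82-fold higher than EEF1D-1357, with each EEF1D-1357 array counted at its own signal or at the dimmest signal called well above background on it, whichever was higher. Log2 fold changes for both shRNAs were -0.88 (SE 0.29) and -1.09 (SE 0.30), with limma adjusted p = 0.203 and 0.163 over all probes.

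FASN, fatty acid synthase, had the smallest p-value of the 10 genes for both shRNAs against control. Its brightest probe, A_73_P245306, gave 4.97, 5.13 and 5.27 with EEF1D-1357 and 5.01, 4.75 and 4.88 with EEF1D-1893, against 5.93 and 5.67 in the controls. The highest shRNA array, at 5.27, lay below the lower control, at 5.67. The log2 fold change was -0.80 (SE 0.15, 95% confidence interval -1.15 to -0.45), with an unadjusted p of 0.000919 and a limma adjusted p of 0.143. It was -0.68 (SE 0.16) with EEF1D-1357 and -0.92 (SE 0.16) with EEF1D-1893.

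All 5 FASN probes had every shRNA array below both controls, where 10% of all probes did. A_73_P113101 gave -4.17, -4.25 and -4.13 with EEF1D-1357 and -4.15, -4.14 and -4.28 with EEF1D-1893, against -3.58 and -3.42 in the controls. A_73_104455 gave -0.82, -0.53 and -0.44 with EEF1D-1357 and -0.73, -1.09 and -0.91 with EEF1D-1893, against -0.16 and -0.18 in the controls. The 6 shRNA arrays of A_73_P113101 lay close together, and those of A_73_104455 spread more widely, with EEF1D-1893 replicate 2 lowest. A_73_101920 had the smallest difference, with -2.55, -2.39 and -2.28 for EEF1D-1357 and -2.48, -2.84 and -2.71 for EEF1D-1893, against -2.13 and -2.23 in the controls. Log2 fold changes over the 5 probes ran between -0.80 and -0.36, and their limma adjusted p over all probes between 0.123 and 0.254.

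The FASN difference was also present within each slide. Against the control of the same slide, A_73_P245306 was -0.55 with EEF1D-1357 and -1.05 with EEF1D-1893, and the 4 other probes were also below 0 on both slides. Before scaling, its intensities on slide 1 were 64900, 73560 and 77760 with EEF1D-1357, against 94500 in control replicate 2. On slide 2 they were 51780, 54510 and 58030 with EEF1D-1893, against 77670 in control replicate 1. Across slides the unscaled values touch, since 1 EEF1D-1357 array exceeded control replicate 1. With slide as a block, FASN was called at -0.80 (limma adjusted p = 0.0359) and EEF1D-1893 against control at -1.05 (limma adjusted p = 0.0271), where 3.01% and 8.16% of all genes were called lower.

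The FASN and ACACA calls depend on the controls. Without control replicate 2, both genes were called for both shRNAs together (limma adjusted p = 0.0200 for FASN and 0.0494 for ACACA), where 14.6% of all genes were called lower. Without control replicate 1, neither was called (limma adjusted p = 0.187 for FASN and 0.226 for ACACA), where 0.174% of all genes were called lower. By hairpin, leaving out control replicate 2 gave calls for FASN (limma adjusted p = 0.0290) and ACACA (limma adjusted p = 0.0417) with EEF1D-1357, where 15.2% of all genes were called lower, and for FASN (limma adjusted p = 0.0271) and ACSS2 (limma adjusted p = 0.0358) with EEF1D-1893, where 8.16% were. FASN stood at -0.93 without control replicate 2 and at -0.67 without control replicate 1, and ACACA at -0.89 and -0.80 in the same settings. For EEF1D-1893, leaving out control replicate 2 gave the same values as the slide block. Both set that hairpin against control replicate 1 alone, so their calls are 1 result.

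**Figure D2:**
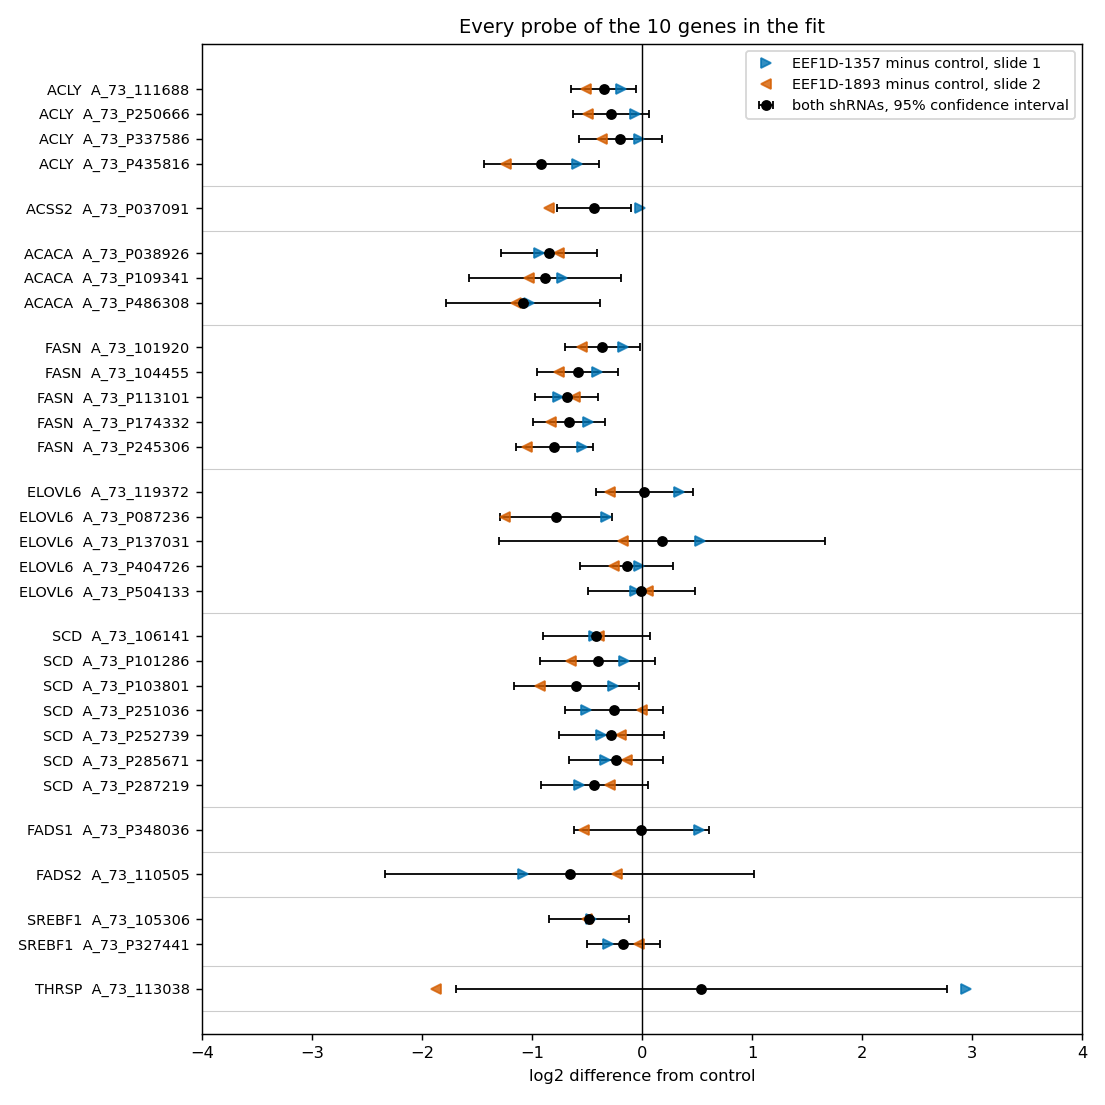
Log2 difference from control of each of the 30 fitted probes, grouped by gene in pathway order: black points with bars give both shRNAs against both controls with the 95% confidence interval, and triangles give each shRNA minus the control on its own slide. All FASN and ACACA probes lie below 0 on both slides, and A_73_P087236, at -0.79, is the lowest of the ELOVL6 probes.

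ELOVL6, which extends palmitate, gave different values over its 5 probes. The brightest, A_73_119372, gave 1.38, 1.53 and 1.78 with EEF1D-1357 and 1.29, 1.19 and 1.59 with EEF1D-1893, against 1.65 and 1.23 in the controls. The groups overlapped fully (log2 fold change 0.017, SE 0.19, limma adjusted p = 0.969). Its near-identical partner A_73_P404726 gave 0.73, 0.92 and 1.23 with EEF1D-1357 and 0.70, 0.57 and 1.00 with EEF1D-1893, against 1.01 and 0.99 in the controls, with a log2 fold change of -0.14 (SE 0.18). The controls differed by 0.42 on the first probe of the pair and by 0.029 on the other.

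A_73_P087236, 1826 bases upstream of the last ELOVL6 probe, stood apart. It gave 0.28, 0.22 and 0.51 with EEF1D-1357 and 0.23, -0.21 and 0.21 with EEF1D-1893, against 1.32 and 0.66 in the controls. All shRNA arrays lay below both controls, and the log2 fold change was -0.79 (SE 0.22, limma adjusted p = 0.166 over all probes). A_73_P137031 and A_73_P504133 were at 0.18 (SE 0.63) and -0.0074 (SE 0.21). One EEF1D-1357 array of A_73_P137031 reached -0.52, against -2.79 and -2.42 in the other arrays of that group and -2.37 and -2.44 in the controls.

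SCD, stearoyl-CoA desaturase, was below control on all 7 of its probes, but with overlapping groups on 6 of them. The brightest, A_73_P287219, gave 3.58, 3.74 and 3.78 with EEF1D-1357 and 3.49, 3.68 and 3.11 with EEF1D-1893, against 3.72 and 4.27 in the controls. Control replicate 1 lay among the shRNA arrays. The log2 fold change was -0.44 (SE 0.21, limma adjusted p = 0.334), and it was -0.71 without control replicate 1 and -0.16 without control replicate 2. Over the 7 probes it ran between -0.60 and -0.24.

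The SCD probes ordered the controls in different ways. On 5 probes control replicate 1 was below control replicate 2, by 0.37 to 0.64, while on A_73_P101286 and A_73_P103801 it was above it, by 0.27 and 0.32. A_73_P103801 gave -0.61, -0.45 and -0.38 with EEF1D-1357 and -0.75, -0.41 and -1.31 with EEF1D-1893, against 0.11 and -0.21 in the controls, and was the 1 SCD probe with every shRNA array below both controls. Its log2 fold change was -0.60 (SE 0.24, limma adjusted p = 0.253 over all probes). EEF1D-1893 replicate 3 was the lowest array on all 7 probes. The pair that differs at T16C gave close values: A_73_P252739 was at -0.28 (SE 0.20) and A_73_P285671 at -0.24 (SE 0.18).

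**Figure D3:**
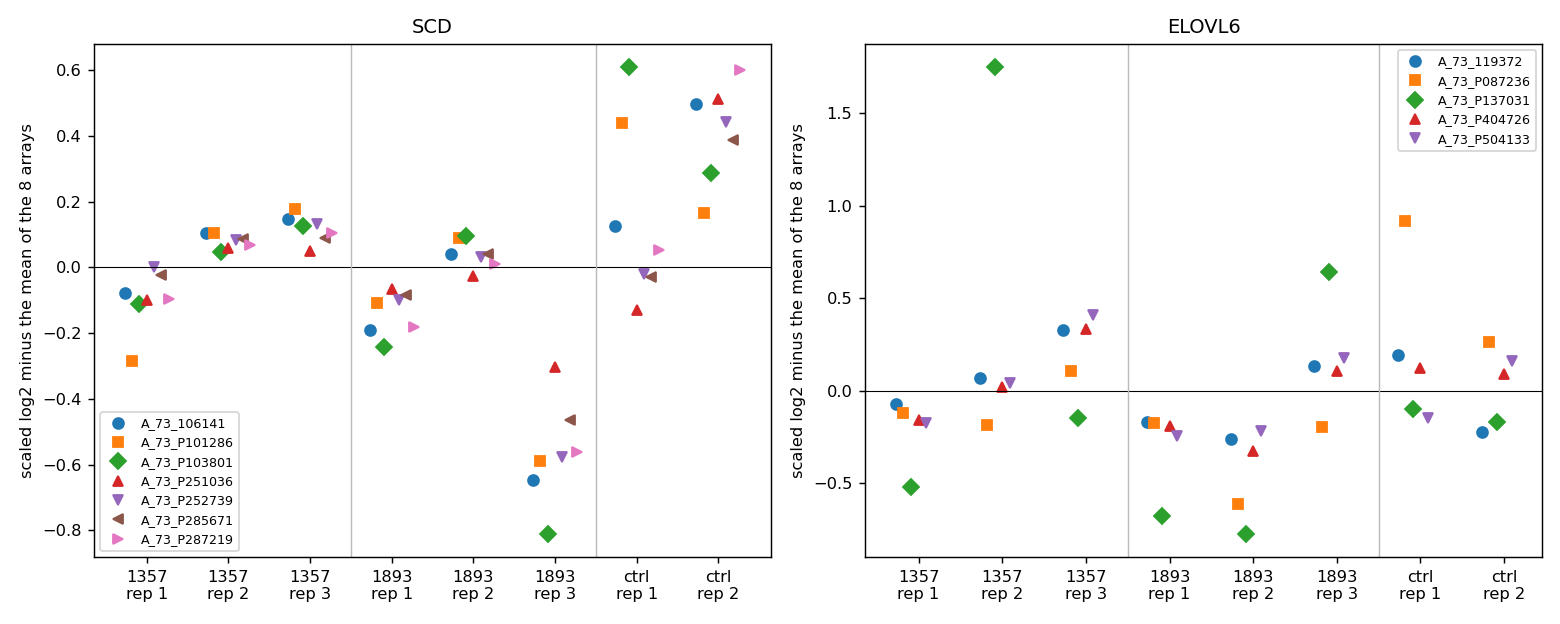
Scaled log2 intensity of each SCD probe (left) and each ELOVL6 probe (right) minus its own mean over the 8 arrays, by array, with markers offset sideways to keep probes apart. For SCD, EEF1D-1893 replicate 3 is lowest on all 7 probes and the controls are ordered one way on 5 probes and the other way on A_73_P101286 and A_73_P103801. For ELOVL6, A_73_P087236 is the probe on which both controls exceed all shRNA arrays.

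The polyunsaturated desaturases were dim or erratic. FADS1, the delta-5 desaturase, gave -4.65, -4.32 and -4.25 with EEF1D-1357 and -4.31, -4.57 and -4.54 with EEF1D-1893, against -3.94 and -4.92 in the controls (A_73_P348036). The controls, 0.98 apart, enclosed all shRNA arrays (log2 fold change -0.0081, 95% confidence interval -0.62 to 0.61, limma adjusted p = 0.991). FADS2, the delta-6 desaturase, gave -2.23, -2.18 and -3.61 with EEF1D-1357 and -4.78, -4.08 and -2.83 with EEF1D-1893, against -3.66 and -1.59 in the controls (A_73_110505). Arrays of the same group lay far apart, the controls included, and the log2 fold change was -0.66 (SE 0.72, limma adjusted p = 0.65). The other probe of each gene, A_73_P061356 for FADS1 and A_73_P495333 for FADS2, was not well above background on any array.

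SREBF1, the SREBP-1 gene, was lower by 1 of its 2 probes. A_73_105306 (chr19:35685904-35686062) gave -1.43, -1.58 and -1.64 with EEF1D-1357 and -1.33, -1.73 and -1.74 with EEF1D-1893, against -1.10 and -1.08 in the controls. The controls were within 0.012 of each other and above all shRNA arrays. The log2 fold change was -0.48 (SE 0.15, 95% confidence interval -0.85 to -0.12), with an unadjusted p of 0.0159 and a limma adjusted p of 0.216. The difference was -0.46 with EEF1D-1357 on slide 1 and -0.51 with EEF1D-1893 on slide 2. Before scaling the values overlapped on slide 2, at 643, 611 and 591 with EEF1D-1893, against 597 in control replicate 1.

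The other SREBF1 probe did not separate the groups. A_73_P327441 (chr19:35684286-35684345) gave -3.41, -3.58 and -3.56 with EEF1D-1357 and -3.34, -3.59 and -3.58 with EEF1D-1893, against -3.47 and -3.20 in the controls. Its log2 fold change was -0.17 (SE 0.14, limma adjusted p = 0.537 over all probes), and it was -0.31 on slide 1 and -0.031 on slide 2. THRSP was well above background on 2 arrays, EEF1D-1357 replicate 3 and control replicate 1, by the 1 probe of 4 that passed the filter. A_73_113038 gave -5.78, -5.79 and -2.68 with EEF1D-1357 and -7.33, -7.13 and -6.80 with EEF1D-1893, against -5.21 and -7.69 in the controls. Only 1 EEF1D-1357 array and no EEF1D-1893 array were well above background, so neither a fold nor a bound between the hairpins is given.

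The hairpins were also set against control one at a time. With EEF1D-1357, 7 of the 10 log2 fold changes were below 0, where 58.6% of all genes were, and their median was -0.16. With EEF1D-1893, 10 of 10 were below 0, where 53.2% of all genes were, and their median was -0.60, although no EEF1D-1893 array had THRSP well above background. At an unadjusted p under 0.05, 3 genes were lower with EEF1D-1357 (ACACA, FASN and SREBF1), where 9.99% of all genes were. With EEF1D-1893 there were 5 (FASN, ACSS2, ACACA, SREBF1 and SCD), where 7.32% were. Every EEF1D-1357 array was below both controls for 3 genes, where 18.5% of all genes were, and every EEF1D-1893 array for 6 (the same 3 with ACLY, ACSS2 and SCD), where 14.6% were. None of the 10 was called in either comparison, where 0% of all genes were, and both comparisons share the 2 controls.

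Set directly against each other, 9 of the 10 genes were higher with EEF1D-1357 than with EEF1D-1893. Over all genes 58.5% were below 0 in this comparison, and the median of the 10 was 0.23. ACACA was the exception at -0.27 (SE 0.18). For THRSP, counted among the 9, the signal allows no fold, as stated above. With slide as a block, SCD and FADS2 turned to -0.28 and -0.85. None passed (smallest limma adjusted p 0.747). At an unadjusted p under 0.05 ACSS2 was higher, where 2.58% of all genes were. THRSP also fell under that limit, but from 1 bright EEF1D-1357 array beside 5 shRNA arrays not well above background, so nothing is read from it. Because each hairpin was run on its own slide, hairpin and slide cannot be told apart in this comparison except through the 2 controls.

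**Figure D4:**
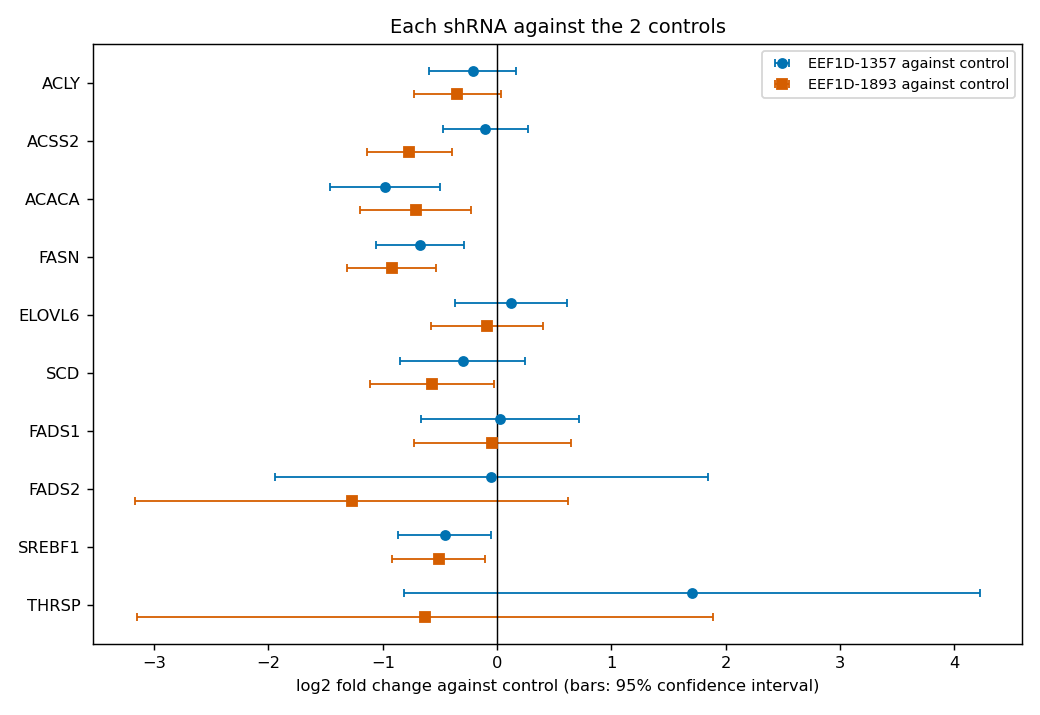
Log2 fold change against the 2 controls for EEF1D-1357 (circles) and EEF1D-1893 (squares) with 95% confidence intervals, for the 10 genes in pathway order. ACACA, FASN and SREBF1 lie below 0 with both hairpins, ACSS2 is at -0.10 for the EEF1D-1357 hairpin and at -0.77 for EEF1D-1893, and the intervals of FADS2 and THRSP are wide.

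Arrays, slides and probes were counted as follows. By the probe that stands for the gene, 3 of the 10 genes (ACACA, FASN and SREBF1) had every shRNA array below both controls, where 9.21% of all genes did, and 0 had every shRNA array above, where 7.7% did. Against the control of the same slide, 7 of 10 were below 0 on both slides, where 31.1% of all genes were. The exceptions were ELOVL6, FADS1 and THRSP, each above 0 on slide 1 and below 0 on slide 2. Of the 30 fitted probes, 27 were below 0 for both shRNAs against control, where 55.9% of all probes were, and 13 had every shRNA array below both controls, where 10% of all probes did. Lower at an unadjusted p under 0.05 were 14 of the 30, where 10.5% of all probes were, and 0 higher. On both slides, 25 of the 30 were below 0, where 31.1% of all probes were. Several of these probes overlap in sequence or share a gene, so they are not separate observations.

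Outside the 10 genes, the surrounding pathway had members on either side of 0. Of the fatty acid synthesis partners, which hold the mitochondrial pathway, further acyl-CoA synthetases and thioesterases, 11 of 13 were measured with a median log2 fold change of -0.092, beside -0.068 over all genes. None was called or reached an unadjusted p under 0.05. HSD17B8 and MECR, of mitochondrial fatty acid synthesis, were at -0.44 (SE 0.19) and -0.35 (SE 0.20), and CBR4, from the same pathway, at 0.56 (SE 0.24). CBR4 lay between -0.65 and -0.43 in the shRNA arrays, against -1.59 and -0.60 in the controls. Without control replicate 1, CBR4 was at 0.061 and MECR at 0.015.

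Of the other elongases, desaturases and their electron carriers, 19 of 22 were measured, none was called, 13 were above 0 and their median was 0.091. At an unadjusted p under 0.05, 2 were higher and 1 lower, where 7.34% of all genes were higher and 9.6% lower. DEGS1, the sphingolipid delta-4 desaturase, gave 4.93, 4.94 and 4.90 with EEF1D-1357 and 4.98, 5.02 and 4.90 with EEF1D-1893, against 3.94 and 4.50 in the controls. Its log2 fold change was 0.73 (SE 0.16, limma adjusted p = 0.153), and it was 0.44 without control replicate 1. ELOVL5, an elongase of polyunsaturated chains, was at 0.43 (SE 0.18), and at 0.15 without control replicate 1. CYB5R3, the cytochrome b5 reductase that feeds electrons to desaturases, was at -0.49 (SE 0.17), and at -0.22 without that array.

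Genes that supply carbon and NADPH had a median of -0.16 over 20 of 21 measured, with 0 called. PC, pyruvate carboxylase, was the 1 gene lower at an unadjusted p under 0.05, at -0.86 (SE 0.26, limma adjusted p = 0.209). It gave 2.29, 2.16 and 1.82 with EEF1D-1357 and 1.26, 1.37 and 2.18 with EEF1D-1893, against 2.72 and 2.69 in the controls. The citrate carrier SLC25A1 and the monocarboxylate transporter SLC16A1 were at -0.42 (SE 0.23) and -0.32 (SE 0.15). SLC25A1 was at 0.042 without control replicate 1.

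Among SREBP, LXR and AMPK regulators, 26 of 29 were measured, none was called, and the median was -0.16. At an unadjusted p under 0.05, 4 were lower and 2 higher, where 9.6% of all genes were lower and 7.34% higher. INSIG1, the endoplasmic reticulum protein that holds back SREBP processing and is itself an SREBP target, gave -0.14, 0.07 and 0.27 with EEF1D-1357 and -0.62, -0.68 and -0.12 with EEF1D-1893, against 0.73 and 0.59 in the controls. Its groups did not overlap, and its log2 fold change was -0.86 (SE 0.19, limma adjusted p = 0.153). NFYB, a subunit of the NF-Y factor that binds with SREBP at many promoters, was at 0.42 (SE 0.14), and at 0.24 without control replicate 1. PRKAA2, a catalytic subunit of AMPK, was at -1.02 (SE 0.36) and at -0.35 without control replicate 1. LPIN1, a phosphatidate phosphatase and coregulator, was at -0.73 (SE 0.26). Both were dim in the shRNA arrays, PRKAA2 between -6.05 and -4.90 and LPIN1 between -6.53 and -5.54. In the controls PRKAA2 was at -3.62 and -4.96, and LPIN1 at -5.30 and -5.42. Between 22 and 26 of the 26 regulators were well above background on an array, so these 2 folds may be limited by background. With slide as a block, DEGS1 (limma adjusted p = 0.0314) and CBR4 (limma adjusted p = 0.0412) were called higher. SLC25A1 (limma adjusted p = 0.0469), CYB5R3 (limma adjusted p just under the threshold) and the transcription factor gene USF2 (limma adjusted p = 0.0469, named after its value was seen) were called lower. These were the 5 calls over the 4 lists, where 5.7% of all genes were called.

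**Figure D5:**
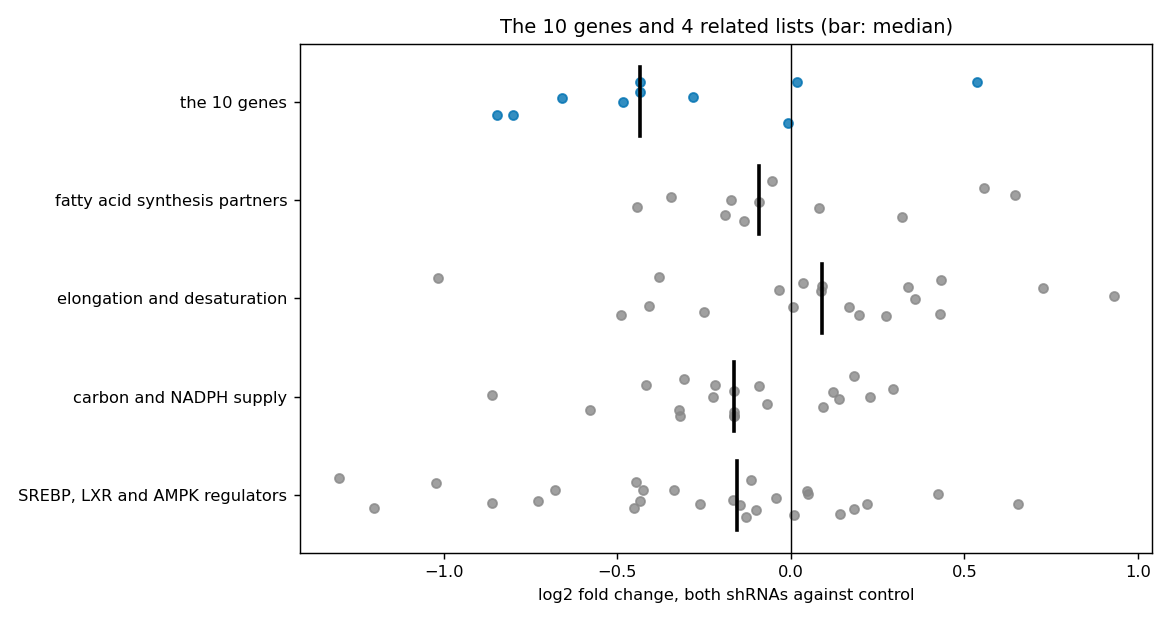
Log2 difference between both shRNAs together and control for the 10 genes and for the measured members of 4 related lists, 1 point for each gene with the vertical bar at the list's median and points spread up and down only to separate them. The medians are -0.44 for the 10 genes and -0.092, 0.091, -0.16 and -0.16 for the lists from top to bottom.

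The arrays also varied in markers of other cell types, whose part in these results was not tested. Summed over the 9 measured luminal markers, the level was 423 to 496 in the shRNA arrays, against 831 and 454 in the controls, in units of the array's 75th percentile. Of the basal and myoepithelial markers, 8 of 9 were measured, with summed levels of 150 to 321 against 294 and 308. All 8 were below 0 for both shRNAs together, where 57.2% of all genes were. At an unadjusted p under 0.05, 2 of the 8 were lower, where 9.6% of all genes were. Those 2 were OXTR, the oxytocin receptor of myoepithelial cells, at -2.04 (SE 0.23, limma adjusted p = 0.0619), and MYLK, myosin light chain kinase, at -3.50 (SE 0.92, limma adjusted p = 0.17), both named after their values were seen. On every shRNA array 7 of these 8 markers were well above background, against 8 on both controls. OXTR was the dimmest of them on each shRNA array, between -7.16 and -5.68, against -4.42 and -4.40 in the controls. Its fold and its slide-block call below may therefore rest on background signal in the shRNA arrays. With slide as a block, OXTR (limma adjusted p = 0.0337) and the luminal marker FOXA1 (limma adjusted p = 0.0469) were called lower, where 3.01% of all genes were. Of the adipocyte markers, 4 of 8 were measured, with summed levels of 0.0589 to 0.553 against 0.174 and 0.0926, and ADIPOQ, LEP, LIPE and RETN were not well above background on 2 arrays. Summed fibroblast levels were 1.32 to 3.86 against 2.25 and 2.81 over 7 of 8 markers. All 7 were below 0 for both shRNAs together, where 57.2% of all genes were, with a median of -0.35. By hairpin, 3 of the 7 were lower at an unadjusted p under 0.05 with EEF1D-1357, where 9.99% of all genes were. With EEF1D-1893 it was 0 of the 7, where 7.32% of all genes were. For endothelium they were 0.134 to 0.265 against 0.307 and 0.182 over 3 of 6 markers. Leukocyte markers, of which 5 of 8 were measured, summed to 4.47 to 7.42 against 7.74 and 5.54.

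The genes whose levels ran most like those of the genes above were found by Pearson's r over the 8 arrays among 10739 genes well above background on all of them. The closest to FASN were REP15 (0.989), USP24 (0.966), ZNRF1 (0.965), TXNRD3 (0.956) and EPS15 (0.954). The closest to ACACA were TNFAIP8L1 (0.989), CSNK1G3 (0.983), POLD3 (0.981), INTS15 (0.980) and PUS1 (0.974). The closest to ACSS2 were SLC48A1 (0.977), ANO10 (0.973), PCBP3 (0.964), SSH3 (0.949) and FOXO4 (0.942). They are the highest of many correlations over few arrays that share slides and scaling.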

How the data were processed

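Total RNA was labelled with Cy3 and hybridised to 8 one-colour Agilent arrays. Per the file headers, the deposited scanner files hold the intensity of each spot as read by Feature Extraction 10.7.3.1 (Agilent), while the submitters' processing notes name 9.1. The processed intensity is background-subtracted and not normalized between arrays, per the file headers, and the flags used are given there as 0 or 1. The deposited value table holds the authors' log2 values (r = 0.998 to 1.000 with the scanner values) and served as an alternative only.

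Outlier spots were left out, and the remaining spots of a probe were averaged. Probes with only outlier spots on some array (214 of 43653) were left out entirely. The log2 intensity was reduced by each array's 75th percentile, and a probe was used (30722 were) if it was well above background on 2 or more arrays. The brightest probe stood for a gene. Member probes were named by the symbol in the scanner files and others through RefSeq names. limma 3.58.1 in R 4.3.3 fitted 1 mean per group over the 8 arrays (5 residual and 2.13 prior degrees of freedom). Calls used a two-sided Benjamini-Hochberg adjusted p under 0.05 over all 12617 genes, or over all kept probes where stated. For values by array, all 36 probes were read. The limma steps were run on simulated independent genes with known changes larger than those of FASN and ACACA and no slide effect. That run does not bear on smaller changes, slides or controls that differ.

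Named genes are the members with every probe, up to 4 genes of each related list by p for both shRNAs against control, and the 5 genes most like FASN, ACACA and ACSS2. The members and lists were chosen with earlier results of these data known. Alternatives were another background correction, other scalings, filters and priors, the mean of the probes of a gene, each probe on its own, and the deposited table. Others were only the arrays of the groups compared, the replicate number or slide as a block, and each array left out in turn. The number of arrays limits the precision. Promoter and protein sequences were not used here.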

Additional observations from a re-analysis of the deposited data

Results flagged for a closer look

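The ACSS2 probe A_73_P326996 (chr13:64808857-64808916) is the 1 probe of the 36 on which all arrays of one hairpin lay on the opposite side of both controls from all arrays of the other. It gave -5.70, -5.40 and -5.64 with EEF1D-1357 and -7.46, -7.29 and -7.55 with EEF1D-1893, against -6.41 and -5.75 in the controls. The EEF1D-1357 mean exceeded the EEF1D-1893 mean by 1.85 on the log2 scale. The probe was well above background on 1 of the 8 arrays, an EEF1D-1357 array. The other EEF1D-1357 arrays were not, nor was any EEF1D-1893 or control array, so neither a fold nor a bound is given. The difference was not tested, because the probe did not pass the filter.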

How the results depend on the processing

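Of the 826 alternative values for single genes, 769 kept the direction and the side of the threshold, 10 became called and 47 changed sign, and for both shRNAs against control no alternative turned FASN, ACACA, ACSS2, SREBF1, SCD or ACLY. The counts of calls depended on the slide and on the controls, and the cause was not tested. For EEF1D-1893, the slide block and leaving out control replicate 2 are the same comparison, counted separately here. The same holds for EEF1D-1357 with the slide block and without control replicate 1. With slide as a block, 719 genes were called for both shRNAs, 28 for EEF1D-1357, 1853 for EEF1D-1893 and 6 between the hairpins, and on the mean of the probes of a gene, an alternative chosen after seeing the data, 190, 23, 928 and 4. Of the 10 genes, the slide block called 1 for both shRNAs (FASN) and 2 for EEF1D-1893 (FASN and ACSS2), and 1 for EEF1D-1893 on the mean of the probes. Leaving out 1 array gave 0 to 2923 genes for both shRNAs, 0 to 2911 for EEF1D-1357 and 0 to 1853 for EEF1D-1893, with 0 to 2 of the 10 genes called in each. The highest counts came without control replicate 2, while 26, 28 and 25 genes were called without control replicate 1. An intensity trend with a robust prior called 2 genes for both shRNAs and 2 for EEF1D-1357, probes well above background on all 8 arrays 3 for EEF1D-1357, and normexp with quantile normalization 1 between the hairpins.

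The median of the 10 genes for EEF1D-1357 was -0.040 when scaled by the median, -0.27 with slide as a block, -0.30 with that block on the mean of the probes, and -0.27 to -0.16 with 1 array left out. For EEF1D-1893 it was -0.47 with normexp and quantile normalization, and between the hairpins 0.46 and 0.35 with the 2 slide blocks. Correlations of deviations were small, -0.11 to 0.14 for arrays of the same replicate number and -0.14 to 0.072 for other pairs. The same-number values were above 0 except for replicate 2 of the hairpins, so a weak pairing cannot be told from none. With the replicate block, 0 of the 10 genes were called and their medians were -0.39 for both shRNAs, -0.16 for EEF1D-1357, -0.62 for EEF1D-1893 and 0.23 between the hairpins.

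For both shRNAs against control, ELOVL6 was at -0.12 with normexp and quantile normalization, -0.15 on the mean of the probes, also with the slide block, and -0.10 with the replicate block. FADS1 was at 0.021 with normexp, 0.12 with quantile normalization, 0.079 scaled by the median and 0.12 in the authors' deposited table, and THRSP at -0.055 with the replicate block. For EEF1D-1357, ELOVL6 was at -0.10 with normexp, ACSS2 at 0.016 scaled by the median, and FADS2 at 0.015 with normexp, 0.081 with quantile normalization, 0.068 scaled by the median and 0.083 in the deposited table. For EEF1D-1893, FADS1 was at 0.023, 0.015 and 0.012 with quantile normalization, median scaling and the deposited table. Between the hairpins, the slide block gave -0.28 for SCD and -0.85 for FADS2, and on the mean of the probes -0.0093 for SCD, -0.85 for FADS2, 0.076 for ACACA and -0.12 for SREBF1. Scaling by the median moved the median of all genes by 0.087.

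With 1 array left out, signs changed for both shRNAs in FADS1 (-0.50 to 0.48), ELOVL6 (-0.19 to 0.23), THRSP (-0.70 to 1.78) and FADS2 (-1.70 to 0.38). For EEF1D-1357 they changed in FADS1 (-0.46 to 0.51), FADS2 (-1.09 to 0.99) and ELOVL6 (-0.087 to 0.33), and for EEF1D-1893 in FADS1 (-0.53 to 0.45), THRSP (-1.87 to 0.61) and ELOVL6 (-0.30 to 0.12). Between the hairpins they changed in SREBF1 (-0.017 to 0.19) and FADS1 (-0.013 to 0.19). With 1 control left, that array was assumed to vary like the other groups. Signal over background limits THRSP and the dimmer ACACA probes, and the spread between arrays limits FADS1 and FADS2.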
